A study of Mus musculus with 48 samples.

Results

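The 5 genes described here are Txnip, Arrdc4, Arrdc3 and Arrdc2, which encode alpha-arrestins, and Mlxip, which encodes a glucose-sensing transcription factor. They were taken by name from the 47480 gene symbols of 2 count tables of stretched mouse muscle cells. They were selected on their measured counts in stretched and non-stretched cells of both stages of differentiation at each time point, and on the course of the counts over time without stretching. Those contrasts are therefore given as a description, without p-values. The other contrasts, between experiments and between stages, were not used for the choice and were tested.

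Alpha-arrestins are adaptor proteins that link membrane proteins to ubiquitin ligases of the Nedd4 family, so that receptors and transporters are taken up and degraded. Txnip, the thioredoxin-interacting protein, binds reduced thioredoxin and lowers glucose uptake by removing glucose transporters from the cell surface. Its gene is switched on by high glucose through Mlxip (also called MondoA) and the related factor Mlxipl (ChREBP), which bind with their partner Mlx to paired E-boxes called carbohydrate response elements. Arrdc4 is the arrestin closest to Txnip in its control by MondoA. Arrdc3 takes part in the trafficking of membrane receptors, and Arrdc2 is a less studied member of the same family. In skeletal muscle, Txnip is known as a brake on insulin-stimulated glucose uptake.

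The cells were C2C12, an established mouse line whose myoblasts fuse into multinucleated muscle cells when they differentiate, and RNA was sequenced from 48 libraries. Myoblasts and differentiated cells were each stretched on a flexible collagen-coated membrane, or kept on the same kind of plate without stretching, with a duration of 1, 3 or 6 h, which gave 12 groups of 4 libraries. In each stage, replicates 7 and 8 came from 1 experiment and replicates 9 and 10 from another, except that the stretched differentiated cells at 1 h were replicates 4, 7, 8 and 9, with replicate 4 from an experiment of its own. For stretched myoblast replicate 9 at 1 h, the code of the experiment in the label is unlike all others. It was counted with replicates 9 and 10, so the values within that experiment at 1 h rest on this reading. No allele, transgene or drug distinguished the groups, and every library came from the same line. The methods describe separate samples from independent experiments, with 3 experiments for the differentiated cells. By the labels, only the stretched differentiated group at 1 h drew on 3, and the experiment of replicate 4 had no non-stretched library. The p-values treat each library as independent, although pairs of libraries in a group shared an experiment. In the tests between experiments and between stages, 6 of the 12 non-stretched libraries of a stage came from the same experiment. Those p-values take libraries, not experiments, as replicates. The glucose content of the medium was not recorded in the tables. The differentiation markers Myog, Myh3, Ckm, Acta1, Tnnt3 and Mef2c summed to 6.604 to 16.2 CPM (library-scaled counts) in the 24 myoblast libraries and to 9995 to 12340 CPM in the 24 differentiated ones. The myoblast markers Myod1, Myf5, Pax7, Cdk1 and Mki67 summed to 847.4 to 1096 CPM and to 315.9 to 475.2 CPM. Of these, Myod1 (160.3 against 103.2 CPM) and Pax7 (32.65 against 26.92 CPM) had the higher mean in differentiated cells, and the others the lower. The 10 markers of adipocytes, osteoblasts, leukocytes, endothelium and epithelium summed to at most 2.102 CPM in any library, with Cd68 the highest among them at 0.359 to 1.36 CPM, and Adipoq, Plin1, Bglap, Ptprc, Pecam1, Epcam and Krt18 at 0 in at least 1 library of each stage. Libraries held 48447318 to 77080730 counts. Of the 24 differentiated libraries, stretched replicate 4 at 1 h was the lowest of its group for each of the 5 genes, and values with and without it are given below.

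The promoters are shown because the control of these genes by glucose is known to act through motifs close to the start of transcription. Each line gives the 250 bases before the start of the gene in RefSeq (assembly GRCm38.p6), 5′ to 3′ on the strand of the gene, with the letters that matched a searched motif in capitals. The motifs, searched on both strands, were CACGNG repeated after 5 bases in the same direction (paired E-boxes in the form of a carbohydrate response element), CACGTG (an E-box), CCAAT (the CCAAT box), GTAAACA (the site of FoxO factors) and GNACA followed after 3 bases by TGTNC (a palindrome of the glucocorticoid receptor). All 5 genes were matched to RefSeq, and Arrdc3 had 3 annotated starts, of which the one at the GENCODE start is shown.
Txnip, chr3:96557707-96557956, + strand: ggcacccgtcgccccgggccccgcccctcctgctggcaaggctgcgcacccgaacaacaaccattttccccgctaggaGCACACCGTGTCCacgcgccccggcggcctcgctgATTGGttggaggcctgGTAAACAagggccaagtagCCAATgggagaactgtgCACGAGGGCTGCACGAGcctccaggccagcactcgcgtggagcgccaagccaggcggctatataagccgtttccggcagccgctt
Arrdc4, chr7:68749239-68749488, - strand: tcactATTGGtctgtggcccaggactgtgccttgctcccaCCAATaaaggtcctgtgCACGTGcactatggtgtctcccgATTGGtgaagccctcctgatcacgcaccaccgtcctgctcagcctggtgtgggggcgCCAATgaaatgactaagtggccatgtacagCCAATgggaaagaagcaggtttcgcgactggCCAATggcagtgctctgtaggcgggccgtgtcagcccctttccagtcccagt
Arrdc3, chr13:80883134-80883383, + strand: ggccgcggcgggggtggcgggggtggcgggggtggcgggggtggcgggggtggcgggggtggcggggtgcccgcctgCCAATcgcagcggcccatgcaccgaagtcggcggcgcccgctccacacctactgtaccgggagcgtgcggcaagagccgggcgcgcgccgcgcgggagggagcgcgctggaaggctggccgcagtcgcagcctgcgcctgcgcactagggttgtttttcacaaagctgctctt
Arrdc2, chr8:70839721-70839970, - strand: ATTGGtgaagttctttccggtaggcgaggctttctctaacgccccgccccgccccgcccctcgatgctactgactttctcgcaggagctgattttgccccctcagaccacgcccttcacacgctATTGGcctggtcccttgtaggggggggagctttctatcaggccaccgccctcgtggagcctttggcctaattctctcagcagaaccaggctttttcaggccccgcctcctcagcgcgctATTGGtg

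The paired E-box was found in Txnip, from 85 to 69 bases before the start, and in 15 (0.0457%) of the 32851 windows of the same length before annotated mouse starts. Txnip also held GTAAACA (in 3.17% of all windows) at 121 to 115 bases before the start, the glucocorticoid receptor palindrome (0.387%) at 172 to 160 bases, and a CCAAT box on each strand (33.8% of all windows). Arrdc4 held CACGTG (6.02%) at 193 to 188 bases and 6 CCAAT boxes, with no second E-box at the spacing searched. Arrdc2 held 3 CCAAT boxes, Arrdc3 held 1 and Mlxip, whose promoter is not printed, held 2, and none of these 3 held another of the searched motifs. A match is a description of the letters and does not show that a factor was bound.

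On the mouse genome mm10 (GENCODE vM21), Txnip spans chr3:96557957-96561883 (+), Arrdc4 chr7:68736995-68749241 (-), Arrdc3 chr13:80883384-80896042 (+), Arrdc2 chr8:70835129-70839720 (-) and Mlxip chr5:123394798-123457932 (+). The RefSeq start of Arrdc4 lies 3 bases inside the GENCODE gene. At most 0.974% (in Mlxip) of the 31-base stretches of any of the 5 genes were shared with another gene. The antisense gene Gm15441 overlaps the whole of Txnip and had 0 to 13 counts in a library, where Txnip had 873 to 4547. The genes 1700023H06Rik, which overlaps Arrdc3, and Gm15747, Gm42907, Gm42908 and Gm43813, which overlap Mlxip, had at most 17 counts in a library. The libraries were made with a stranded mRNA kit, but the strand setting of the counting was not given in the sources used here, so whether reads of a gene and of its antisense partner were kept apart is not known.

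Per length, and with both stages scaled together, the order of the levels in the 12 non-stretched libraries of a stage was the same in myoblasts and in differentiated cells, with Txnip highest, then Mlxip, Arrdc3, Arrdc2 and Arrdc4. In myoblasts, the levels were 7.55 ± 1.57 CPM per kb for Txnip (mean ± SD, n = 12), 5.94 ± 0.0951 for Mlxip, 4.05 ± 0.387 for Arrdc3, 0.693 ± 0.0753 for Arrdc2 and 0.180 ± 0.0323 for Arrdc4. In differentiated cells, they were 19.9 ± 2.65 CPM per kb for Txnip, 5.43 ± 0.295 for Mlxip, 4.85 ± 0.288 for Arrdc3, 1.70 ± 0.204 for Arrdc2 and 0.183 ± 0.0286 for Arrdc4. The ranges of Txnip and Mlxip overlapped in myoblasts (5.09 to 9.67 and 5.81 to 6.15), as did those of Mlxip and Arrdc3 in differentiated cells (5.01 to 5.99 and 4.46 to 5.31). All other neighbours in the order were apart. Arrdc4 had only 30 to 65 counts in any of the 48 libraries and Arrdc2 had 74 to 426, so that their values are less precise than those of the other 3 genes.

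Txnip, the thioredoxin-binding arrestin, was lower in stretched than in non-stretched differentiated cells at all 3 times, and the libraries of the groups did not overlap at any of them. At 1 h, it measured 74.7, 73.6, 57.98 and 65.0 CPM in non-stretched replicates 7, 8, 9 and 10, and 19.5, 43.8, 41.4 and 46.1 CPM in stretched replicates 4, 7, 8 and 9. Every stretched library was below every non-stretched one, and replicate 4 was the lowest, with a gap to the next library of 0.824 of the range of the group in CPM and 0.876 in log2 CPM (Dixon's limit 0.829). At 3 h, the values were 59.3, 58.6, 49.7 and 50.3 CPM without stretching and 31.3, 30.6, 26.8 and 20.8 CPM with it, in replicates 7 to 10. At 6 h, they were 66.7, 63.4, 53.2 and 61.9 CPM without stretching and 32.0, 34.7, 35.4 and 37.3 CPM with it. The stretched groups thus lay between 19.5 and 46.1 CPM and the non-stretched groups between 49.7 and 74.7 CPM over the 6 groups.

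**Figure D1:**
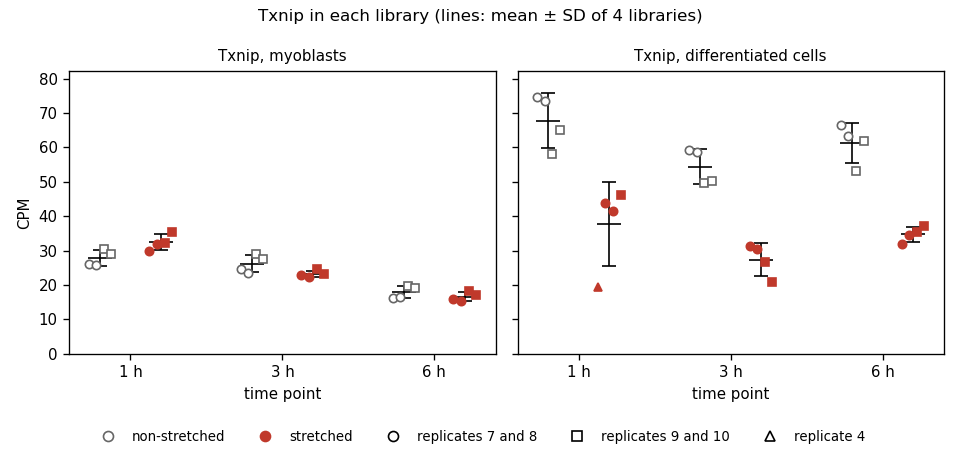
Txnip in CPM in each of the 48 libraries by time point, with non-stretched libraries open and stretched ones filled, and the mean ± SD of each group of 4 as lines. Stretched differentiated cells lie below non-stretched ones at every time, while in myoblasts the groups of a time overlap and both are lower at 6 h than at 1 h.

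The mean of Txnip in stretched differentiated cells was 0.556 times that in non-stretched cells at 1 h, 0.503 times at 3 h and 0.568 times at 6 h. The log2 fold changes from the edgeR model were -0.85 (SE 0.22), -0.99 (SE 0.11) and -0.82 (SE 0.067). A gene was taken as called where its adjusted p-value was under 0.05 and its log2 fold change was 0.58 or more in size. Txnip met both limits at 3 h, when 1.63% of 15513 genes did, and at 6 h, when 2.04% of 15433 genes did. At 1 h, it met the fold limit alone, and 0.27% of 15538 genes met both. The limit on the p-value alone was met by 0.663%, 22.2% and 22.3% of genes at the successive times. The share of genes whose groups did not overlap was 6.44% at 1 h, 26.1% at 3 h and 26.3% at 6 h. Without stretched replicate 4, the log2 fold change at 1 h was -0.63 and both limits were met. They were also met with the experiment or the replicate number in the model. There, replicate 4 had a level of its own and did not enter the estimate, so both repeat the same check. With all 24 libraries of the stage in the model, both limits were met too. Txnip was called at 1 h in 4 of 15 alternatives, and not with DESeq2, another normalization or filter, or any other single library left out. Within the experiment of replicates 7 and 8, the differences in mean log2 CPM were -0.80, -0.93 and -0.97 at 1 h, 3 h and 6 h. Within that of replicates 9 and 10, they were -0.41 (1 stretched library), -1.08 and -0.66. In bulk RNA, fewer cells that express a gene and less of its RNA per cell cannot be told apart. The differentiation markers summed to a mean of 11130, 11560 and 11400 CPM in the non-stretched groups and 11000, 11360 and 10640 CPM in the stretched groups at 1 h, 3 h and 6 h.

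In myoblasts, the stretched and non-stretched groups of Txnip overlapped. At 1 h it measured 26.2, 25.9, 30.6 and 29.0 CPM without stretching and 29.8, 32.0, 32.4 and 35.5 CPM with it, in replicates 7 to 10. At 3 h the values were 24.7, 23.5, 28.9 and 27.6 CPM against 22.9, 22.3, 24.6 and 23.1 CPM, and at 6 h 16.2, 16.5, 19.7 and 19.2 CPM against 15.96, 15.2, 18.3 and 16.96 CPM. At each time the ranges crossed, although all 4 stretched libraries were above the non-stretched mean at 1 h and all 4 were below it at 3 h. The log2 fold changes were 0.22 (SE 0.063), -0.16 (SE 0.058) and -0.10 (SE 0.076). At 3 h the limit on the p-value was met, and at no time was the fold limit reached. The differences had the same sign in both experiments, at 0.25 and 0.19 for 1 h, -0.094 and -0.24 for 3 h, and -0.069 and -0.14 for 6 h in replicates 7 and 8 and replicates 9 and 10.

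Without any stretching, Txnip in myoblasts was lower at 6 h than at 1 h or 3 h. The group means were 27.9 ± 2.26, 26.2 ± 2.51 and 17.9 ± 1.80 CPM at 1 h, 3 h and 6 h (SD, n = 4), and every library at 6 h lay below every library at the earlier times. The log2 fold change from 1 h to 6 h was -0.64 (SE 0.078), which met both limits, as 0.131% of 15213 genes did. That from 3 h to 6 h was -0.55 (SE 0.079), which met only the limit on the p-value, and 0.27% of genes met both. The limit on the p-value alone was met by 1.99% of genes from 1 h to 6 h, 2.02% from 3 h to 6 h and 2.52% from 1 h to 3 h, and libraries were apart for 8.58%, 10.8% and 7.86%. It also passed the fold limit without non-stretched replicate 8 at 3 h (-0.60), without replicate 9 at 6 h (-0.60) or without replicate 10 at 6 h (-0.58). The fall was of the same size in both experiments, at -0.67 in replicates 7 and 8 and -0.62 in replicates 9 and 10 from 1 h to 6 h. In stretched myoblasts Txnip also fell, from 32.4 ± 2.35 CPM at 1 h through 23.2 ± 0.989 to 16.6 ± 1.34 CPM at 6 h, a course that was not tested. There the libraries at 1 h (29.8 to 35.5 CPM) and 3 h (22.3 to 24.6 CPM) were already apart, whereas without stretching those times overlapped. By their means, the 6 myoblast groups were ordered by time first. Among neighbours in that order, only the stretched group at 3 h and the non-stretched group at 6 h were apart. In non-stretched differentiated cells, Txnip had means of 67.8 ± 7.88, 54.5 ± 5.20 and 61.3 ± 5.74 CPM at 1 h, 3 h and 6 h, all of them overlapping. The log2 fold changes were -0.32 (SE 0.089) from 1 h to 3 h and -0.15 (SE 0.089) from 1 h to 6 h, and neither met the limits, which 0% of 15813 genes met in the former and 0.0949% in the latter. From 3 h to 6 h, 0% of genes met both. The limit on the p-value alone was met by 0%, 0% and 1.22% of genes from 1 h to 3 h, 3 h to 6 h and 1 h to 6 h, and libraries were apart for 3.6%, 4.47% and 7.34%. The log2 fold changes of the other 4 genes between times, in non-stretched cells of either stage, lay between -0.22 and 0.22, with overlapping groups, and none met the limits. From 1 h to 3 h in myoblasts, 0 of the 5 genes were called by edgeR or DESeq2 and 0 had an unadjusted p-value under 0.05, as 17.1% of all genes did, where 0.092% of all genes were called. In differentiated cells, edgeR and DESeq2 called 0 of the 5 between any of the times, with 1, 0 and 1 unadjusted p-values under 0.05 from 1 h to 3 h, 3 h to 6 h and 1 h to 6 h, a limit met by 5.67%, 6.94% and 14.2% of all genes.

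Arrdc3, an arrestin linked to receptor trafficking, was higher in stretched than in non-stretched myoblasts at 1 h and lower at 3 h and 6 h, with groups that did not overlap at any time. At 1 h it measured 29.5, 27.1, 27.2 and 23.1 CPM without stretching and 38.2, 38.7, 34.3 and 34.8 CPM with it. At 3 h the values were 29.4, 26.1, 22.8 and 23.5 CPM against 19.9, 18.9, 18.3 and 18.0 CPM, and at 6 h 26.9, 26.4, 24.3 and 23.1 CPM against 20.6, 22.2, 16.99 and 18.5 CPM. The log2 fold changes were 0.45 (SE 0.068), -0.43 (SE 0.067) and -0.36 (SE 0.077). Each met the limit on the p-value, which 5.92%, 31.9% and 27.2% of genes met, and none the fold limit. The differences kept their signs in both experiments, at 0.44 and 0.46 for 1 h, -0.51 and -0.35 for 3 h, and -0.32 and -0.42 for 6 h. In myoblasts, groups were apart for 13.5% of 14938 genes at 1 h, 31% of 14813 at 3 h and 29.3% of 14938 at 6 h.

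In differentiated cells, Arrdc3 stood apart at 3 h alone. There it measured 32.1, 32.7, 28.8 and 27.7 CPM without stretching and 20.3, 21.3, 21.6 and 20.6 CPM with it, a log2 fold change of -0.53 (SE 0.054) that met the limit on the p-value but not the fold limit. At 1 h, the non-stretched libraries measured 30.5, 31.9, 30.5 and 28.03 CPM and the stretched ones 23.8, 31.9, 31.1 and 34.0 CPM, with replicate 4 the lowest. There the log2 fold change was -0.0045 (SE 0.098), and 0.094 without replicate 4. At 6 h it was -0.092 (SE 0.038), with means of 29.1 ± 1.27 and 27.3 ± 0.438 CPM that overlapped in range. Over the 6 groups, the mean of the stretched cells at 3 h (20.9 CPM) was apart from the next, and the other 5 lay between 27.3 and 30.3 CPM, each overlapping its neighbour.

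Arrdc2 was lower after 1 h of stretching in both stages. In myoblasts it measured 2.47, 2.85, 2.43 and 2.26 CPM without stretching and 1.53, 1.71, 1.70 and 1.58 CPM with it, with no overlap. The log2 fold change was -0.61 (SE 0.10) and met both limits, as 1.25% of genes did. Without non-stretched replicate 8, the highest library, it was -0.55 and missed the fold limit. In differentiated cells at 1 h, Arrdc2 measured 5.51, 4.81, 5.84 and 6.52 CPM without stretching and 2.41, 3.52, 3.39 and 4.59 CPM with it, again with no overlap and with replicate 4 the lowest. The log2 fold change of -0.71 (SE 0.17) met the fold limit alone. It met both limits without stretched replicate 9 (-0.87), with DESeq2 and with all 24 libraries of the stage in the model. It did not without replicate 4 (-0.57), with the experiment in the model (-0.52) or with the replicate number in it (-0.50). With the experiment or the replicate number in the model, replicate 4 again did not enter the estimate. Within replicates 7 and 8 the difference was -0.58, and within replicate 9 against replicates 9 and 10 it was -0.43. In myoblasts at 1 h the differences within the experiments were -0.71 and -0.51.

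At 3 h, Arrdc2 overlapped between the groups in both stages, with means of 2.16 ± 0.228 CPM without and 2.002 ± 0.165 CPM with stretching in myoblasts and 5.13 ± 0.770 and 5.12 ± 0.255 CPM in differentiated cells. At 6 h, stretched myoblasts measured 2.51, 2.81, 3.13 and 2.55 CPM and non-stretched ones 2.26, 2.08, 2.19 and 2.17 CPM. The stretched group was thus the higher at 6 h and the lower at 1 h. The log2 fold change at 6 h was 0.34 (SE 0.098), below the fold limit, and 2.17% of genes met both limits. In differentiated cells at 6 h, the groups overlapped, with a log2 fold change of 0.061 (SE 0.092). As Arrdc2 had 74 to 195 counts in the myoblast libraries, each of these values rests on fewer reads than those of Txnip or Arrdc3.

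**Figure D2:**
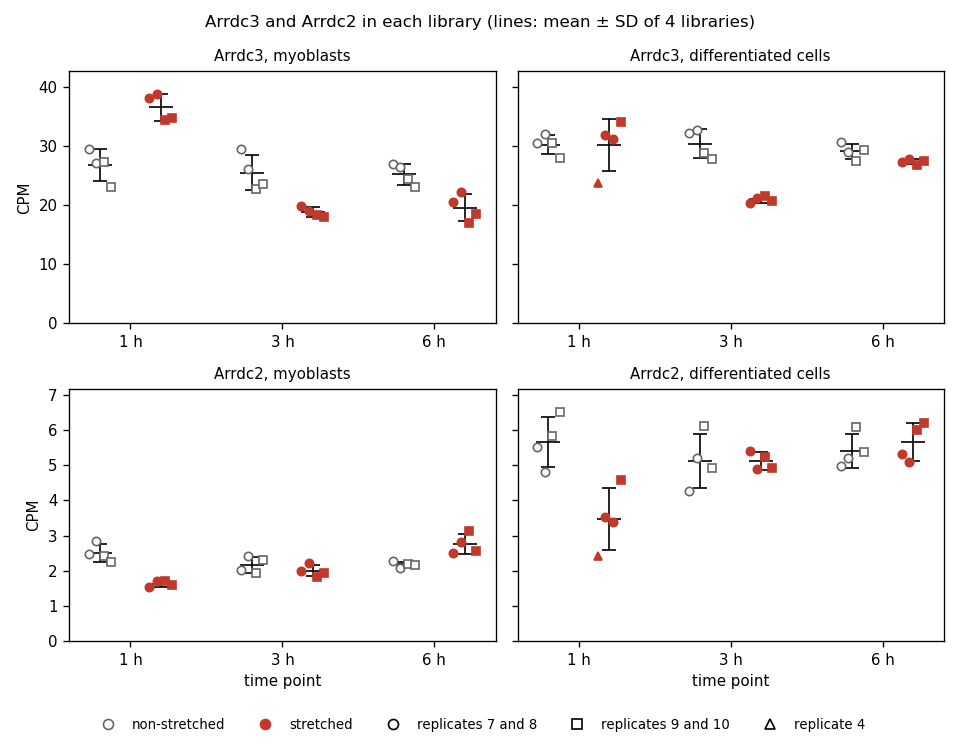
Arrdc3 (top) and Arrdc2 (bottom) in CPM in each library by time point, with non-stretched libraries open, stretched ones filled and the mean ± SD of each group of 4 as lines. Stretched myoblasts lie above non-stretched ones for Arrdc3 at 1 h and below them at 3 h and 6 h, and stretched cells of both stages lie below non-stretched ones for Arrdc2 at 1 h.

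Arrdc4, the arrestin most like Txnip in its known control, was the least abundant of the 5. In differentiated cells at 6 h it measured 0.825, 0.752, 0.729 and 0.834 CPM without stretching (45 to 53 counts) and 0.649, 0.559, 0.551 and 0.614 CPM with it (31 to 40 counts), with no overlap. The log2 fold change of -0.40 (SE 0.14) met neither limit. At 3 h, all 4 stretched libraries (0.482 to 0.640 CPM) were below the non-stretched mean of 0.672 ± 0.148 CPM, but the ranges overlapped, and the log2 fold change was -0.25 (SE 0.20). At 1 h it was 0.0011 (SE 0.18), with stretched replicate 4 the lowest at 0.561 CPM against 0.726 to 0.816 CPM in the others, and 0.099 without that library. In myoblasts, the log2 fold changes were 0.23 (SE 0.17), 0.24 (SE 0.18) and 0.10 (SE 0.21) at 1 h, 3 h and 6 h, with overlapping groups at each time. With counts this low, differences of the size of these standard errors were not detectable at this depth.

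Mlxip, the MondoA gene, had the smallest ratio of highest to lowest group mean of the 5, at 1.11 in myoblasts and 1.23 in differentiated cells. Its 6 group means lay between 49.8 and 55.2 CPM in myoblasts and between 40.0 and 49.2 CPM in differentiated cells, each overlapping its neighbour in the order. In myoblasts at 6 h, it measured 49.8, 51.1, 50.2 and 49.9 CPM without stretching and 58.7, 51.6, 56.5 and 54.1 CPM with it, which did not overlap. Its log2 fold change of 0.14 (SE 0.039) met the limit on the p-value but not the fold limit. The other 5 log2 fold changes lay between -0.096 in differentiated cells at 1 h and 0.086 in differentiated cells at 6 h, with overlapping groups and neither limit met. In differentiated cells at 1 h, stretched replicate 4 was the lowest, at 37.2 CPM against 39.8 to 42.4 CPM, and without it the log2 fold change was -0.063.

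Counted over the 5 genes, 1 was called in myoblasts at 1 h (Arrdc2) and 1 at each of 3 h and 6 h in differentiated cells (Txnip both times). None was called in myoblasts at 3 h, in myoblasts at 6 h or in differentiated cells at 1 h by edgeR, although 2, 3 and 2 had an unadjusted p-value under 0.05, as 41.5%, 38.9% and 8.92% of all genes did, and DESeq2 called 0, 0 and 1 (Arrdc2). The groups were apart for 2 of the 5 genes in myoblasts at 1 h, 1 at 3 h and 3 at 6 h, and for 2 in differentiated cells at each time, beside the shares of all genes given above. Those genes were chosen with these contrasts in view, so nothing can be read from the counts. The median log2 fold change of the 5 genes was 0.22, -0.11 and 0.10 in myoblasts and -0.096, -0.25 and -0.092 in differentiated cells at 1 h, 3 h and 6 h, where the median of all genes lay between -0.0074 and 0.0024.

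**Figure D3:**
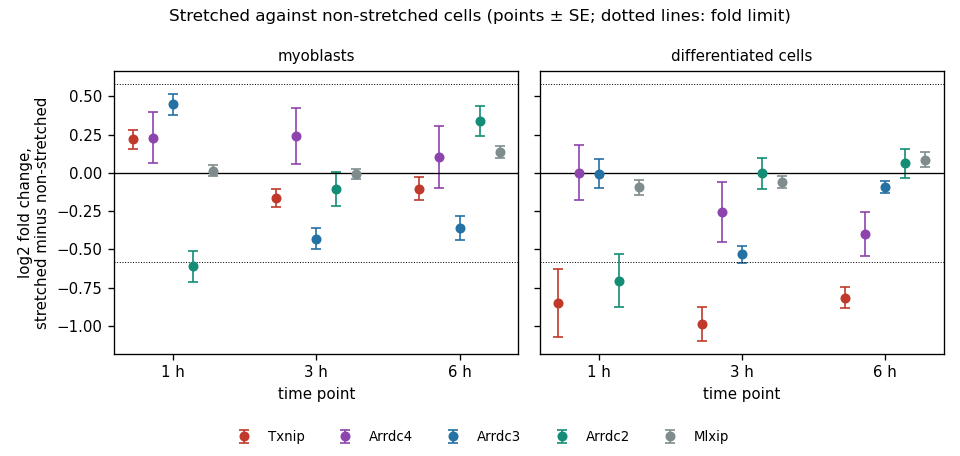
Log2 fold changes (stretched minus non-stretched, points) with their standard errors (bars) for the 5 genes at each time, with dotted lines at 0.58 and -0.58. In differentiated cells Txnip lies below the lower line at each time, at -0.85, -0.99 and -0.82, and in both stages Arrdc2 lies below it at 1 h.

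Levels in non-stretched cells differed between the experiments for 3 of the 5 genes, as tested with edgeR with the time in the model. In myoblasts, Txnip was higher in replicates 9 and 10 than in replicates 7 and 8 (25.8 ± 5.04 against 22.2 ± 4.61 CPM over 6 libraries each, SD over 3 times), with a log2 fold change of 0.23 (SE 0.027, adjusted p = 0.00014), and at each of the 3 times both of the former lay above both of the latter. Arrdc3 was lower in the same libraries (24.0 ± 1.67 against 27.6 ± 1.51 CPM), with a log2 fold change of -0.19 (SE 0.042, adjusted p = 0.016), and was below the mean of the others in 6 of 6. In differentiated cells, replicates 9 and 10 had less Txnip (56.4 ± 6.32 against 66.1 ± 6.94 CPM), with a log2 fold change of -0.23 (SE 0.037, adjusted p = 0.0013) and 6 of 6 libraries below the mean of the others. They also had less Arrdc3 (-0.12, SE 0.033, adjusted p = 0.025, 6 of 6 libraries) and more Arrdc2 (0.22, SE 0.071, adjusted p = 0.046, 5 of 6 libraries). For Mlxip and Arrdc4, the adjusted p-values were 0.41 or more in both stages, and for Arrdc2 in myoblasts it was 0.63. None of the 5 genes reached the fold limit, which together with the p-value was met by 0.201% of 15430 genes in myoblasts and 1.26% of 16059 in differentiated cells. The limit on the p-value alone was met by 4.41% and 17.7% of genes. By edgeR, 2 of the 5 in myoblasts and 3 in differentiated cells had an unadjusted p-value under 0.05, as 19% and 32% of all genes did, and DESeq2 called 0 in either stage. The Txnip differences met the limit on the p-value when any of the 12 libraries was left out (highest adjusted p = 0.00086 in myoblasts and 0.0055 in differentiated cells). That of Arrdc3 in myoblasts missed the limit without replicate 7 at 1 h (adjusted p = 0.051) or replicate 9 at 3 h (adjusted p = 0.052). That of Arrdc3 in differentiated cells missed it without replicate 8 or 10 at 1 h, any of the 4 replicates at 3 h, or replicate 7 at 6 h (adjusted p of 0.056 to 0.063). That of Arrdc2 missed it without replicate 8, 9 or 10 at 1 h, replicate 7 or 9 at 3 h, or replicate 7, 8 or 9 at 6 h (adjusted p of 0.056 to 0.12).

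Non-stretched differentiated cells were tested against non-stretched myoblasts over 12 libraries each, in a model of both tables. The CPM printed here were scaled over all 48 libraries of the series, so that they differ slightly from those within a stage. Txnip was higher in every differentiated library (50.6 to 76.2 CPM) than in every myoblast library (15.9 to 30.2 CPM), a ratio of means of 2.64 and a log2 fold change of 1.39 (SE 0.053, adjusted p = 2.2e-18 by edgeR). Arrdc2 was higher in the same way, at 4.34 to 6.63 against 1.87 to 2.80 CPM (log2 fold change 1.27, SE 0.064, adjusted p = 1.0e-15). Arrdc3 differed less, at 30.4 ± 1.81 against 25.3 ± 2.43 CPM (log2 fold change 0.23, SE 0.044, adjusted p = 2.9e-05), with all 12 differentiated libraries above the myoblast mean and overlapping ranges. Mlxip was lower in differentiated cells, at 45.2 ± 2.45 against 49.5 ± 0.792 CPM (-0.16, SE 0.020, adjusted p = 8.1e-08), and 11 of 12 libraries were below the myoblast mean. For Arrdc4 the means were 0.739 ± 0.116 and 0.725 ± 0.130 CPM (-0.0033, SE 0.11, adjusted p = 0.98). Txnip and Arrdc2 were thus the 2 of 5 genes called, in a comparison that called 52% of 16582 genes, with 89.3% within the limit on the p-value and 63.6% with libraries apart. Each stage had its own experiments, culture conditions and table, and the stage cannot be told apart from them. The 12 libraries of a stage came from 2 experiments, which the p-values do not take into account.

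Txnip and Arrdc3 could be compared library by library. Over the 24 libraries of a stage, Pearson's r of log2 CPM was 0.57 in myoblasts and 0.76 in differentiated cells. The libraries of a group share its mean. Once each group mean was subtracted, r was -0.74 in myoblasts and 0.82 in differentiated cells, or 0.49 in the 23 differentiated libraries other than replicate 4. Libraries of an experiment also share its levels, and the differences between experiments had opposite signs for Txnip and Arrdc3 in myoblasts and equal signs in differentiated cells. Their part in r was not tested. For Txnip and Arrdc4, r after subtraction was 0.40 in myoblasts and 0.43 in differentiated cells. Replicate 4 was the lowest of its group for both genes, and r without it was not computed for this pair. The differences between experiments had equal signs for Txnip and Arrdc4 in each stage, and their part in r was not tested either.

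**Figure D4:**
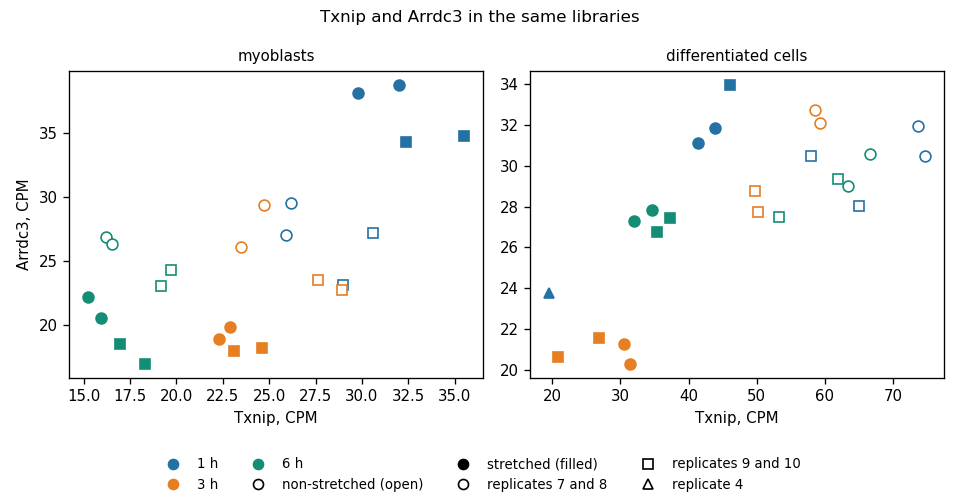
Arrdc3 against Txnip, both in CPM, in each library of a stage, with the time as colour, stretching as filled symbols and the experiment as shape. In myoblasts, the squares of replicates 9 and 10 lie right of and below the circles of replicates 7 and 8 in most groups, and in differentiated cells the triangle of replicate 4 lies at 19.5 CPM of Txnip.

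Of 11068 other genes that averaged 100 counts or more in each stage, those with a pattern most like that of Txnip were Klhl5, Gadd45a, Dym, Hdac8 and Gm14137, ranked by the smaller of the Pearson correlations in the 2 stages. Klhl5 (r = 0.74 in both stages) and Gadd45a, a gene induced by growth arrest and DNA damage (0.74 and 0.73), led this order over the 24 libraries of each stage. Among the genes most opposite to it were Lbr, Msmo1, Stard4 and Kpna2. Lbr, which encodes the lamin B receptor, a protein of the inner nuclear membrane with sterol reductase activity, had r = -0.79 and -0.87. Msmo1, a sterol synthesis enzyme, had -0.79 and -0.79. Arrdc3 had rank 57, Mlxip 7240 and Arrdc2 8949 in the order of likeness. When group means were subtracted, 1 of the 10 genes so ranked (5 like and 5 opposite) remained among the 10, and without differentiated replicate 4, 4 of 10 remained. After that subtraction, Gadd45a had r = 0.83 and 0.86 in myoblasts and differentiated cells, whereas Msmo1 had 0.51 and -0.80.

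The genes around these 5 were followed in 10 lists with 91 genes, of which 77 to 80 passed the filter on low counts in a comparison. The lists were chosen with earlier results of these data known, so the counts and medians of a list are a description. In at least 1 of the 6 stretch comparisons 13 of them were called, 9 upward and 4 downward. The share of all genes called in at least 1 of the 6 was not counted. Neither the 13 nor the calls per list below can therefore be set against the shares of single comparisons. By comparison, 3 rose in myoblasts at 1 h, 2 fell at 3 h, and 2 rose and 1 fell at 6 h. In differentiated cells, 3 rose at 1 h, 1 rose and 1 fell at 3 h, and 2 rose and 1 fell at 6 h. Each count stood beside the background of 1.25%, 1.71% and 2.17% of all genes in myoblasts and 0.27%, 1.63% and 2.04% in differentiated cells. An unadjusted p-value under 0.05 was given to 19%, 41.5% and 38.9% of genes in myoblasts, 8.92%, 34.9% and 35.8% in differentiated cells, and 29.7% of the 91173 tests of the 6 comparisons together, beside which the counts of unadjusted p-values in the lists stand.

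No partner of Mlxip was called. Mlx, the common partner of MondoA and ChREBP, was higher in stretched cells at 6 h in both stages, at 36.9 ± 1.71 against 28.4 ± 0.707 CPM in myoblasts (log2 fold change 0.38, SE 0.038, adjusted p = 0.00010) and 34.3 ± 1.28 against 29.5 ± 0.931 CPM in differentiated cells (0.22, SE 0.039, adjusted p = 0.0037). Both were below the fold limit, without overlap between the groups. At 1 h and 3 h the 4 log2 fold changes of Mlx lay between -0.12 and 0.0067. Mlxipl, the gene of ChREBP, had 0 to 3 counts in any library and was not tested. In the list of the Mlx network (Mlx, Mnt, Mxd1 and Mxd4 tested of 5), 0 genes were called in any comparison by edgeR or DESeq2, while 13 of 24 tests had an unadjusted p-value under 0.05, and the medians ranged from -0.13 in differentiated cells at 1 h to 0.24 in myoblasts at 6 h.

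In the thioredoxin system, 0 of the 12 genes tested of 13 were called by edgeR or DESeq2, with 21 of 72 unadjusted p-values under 0.05. Txn1, the thioredoxin that Txnip binds, was measured at 440 to 479 CPM in the myoblast groups and 191 to 206 CPM in the differentiated ones. It was higher in stretched myoblasts at 3 h by 0.089 (SE 0.022, adjusted p = 0.0089), and its largest difference, in differentiated cells at 6 h, was 0.11 (SE 0.040, adjusted p = 0.065). The medians of the list lay between -0.035 and 0.056. Txnrd1, which reduces thioredoxin, was higher in stretched cells at 3 h, with a log2 fold change of 0.38 (SE 0.025, adjusted p = 8.8e-07) in myoblasts and 0.25 (SE 0.071, adjusted p = 0.028) in differentiated cells. In myoblasts at 6 h it was lower (-0.16, SE 0.041, adjusted p = 0.012). All these were under the fold limit.

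No other arrestin and none of the ligases that arrestins recruit was called. Arrdc1 ranged from 5.56 to 9.13 CPM over the 12 groups, with log2 fold changes between -0.19 and -0.020 and adjusted p-values of 0.21 or more. In the list of other arrestins (4 of 6 tested), 0 were called by edgeR or DESeq2 and 3 of 24 unadjusted p-values were under 0.05. In the Nedd4 family (8 of 9 tested), these numbers were 0 and 14 of 48, and the log2 fold changes stayed between -0.12 and 0.18. The medians lay between -0.064 and 0.015 for the other arrestins and between -0.0057 and 0.026 for the ligases. Of the 3 receptor and integrin genes tested, from a list of 4 known cargoes of arrestins, 0 were called by edgeR or DESeq2, with 4 of 18 unadjusted p-values under 0.05 and medians between -0.12 and 0.075.

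The genes for glucose uptake and phosphorylation gave 3 calls among 10 genes tested of 13, all at low counts, with medians from -0.24 in myoblasts at 3 h to 0.0090 in myoblasts at 6 h. DESeq2 called 2 of the 3 genes and gave no adjusted p-value for Slc2a4. Slc2a3, a glucose transporter, fell in differentiated cells at 6 h, at 0.469 ± 0.134 against 0.958 ± 0.0658 CPM (-1.03, SE 0.20, adjusted p = 0.0056), without overlap and whichever library was left out. Slc2a4, the insulin-responsive transporter GLUT4, fell in myoblasts at 3 h (0.239 ± 0.0843 against 0.404 ± 0.0421 CPM, -0.74, SE 0.26, adjusted p = 0.046) on 10 to 22 counts per library. With a library left out, that call held only without stretched replicate 9 (adjusted p = 0.014) and was lost without any of the other 7 libraries (adjusted p of 0.059 to 0.12). It was kept with the experiment as covariate or the replicate block (adjusted p = 0.047 in both). Slc2a6 rose in myoblasts at 6 h (0.947 ± 0.320 against 0.428 ± 0.175 CPM, 1.16, SE 0.30, adjusted p = 0.016), and the call was lost without non-stretched replicate 9 (adjusted p = 0.051). Slc2a1, the main transporter GLUT1, was higher by less than the fold limit after 6 h of stretching, by 0.17 (SE 0.030, adjusted p = 0.0020) in myoblasts and 0.30 (SE 0.038, adjusted p = 0.00091) in differentiated cells. Hk2, hexokinase 2, was likewise higher at 6 h, by 0.36 (SE 0.042, adjusted p = 0.00025) and 0.23 (SE 0.044, adjusted p = 0.0051), and in differentiated cells at 3 h (0.30, SE 0.036, adjusted p = 0.00044). In differentiated cells, where Txnip was lower at each time, Slc2a4 had log2 fold changes of -0.54, 0.18 and -0.24, with adjusted p-values of 0.21 or more.

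Known targets of carbohydrate response factors gave 3 calls among the 8 tested of 9, all upward, with medians from -0.062 in myoblasts at 1 h to 0.19 in differentiated cells at 3 h. Rgs16 rose in myoblasts at 1 h, at 17.8 ± 1.40 against 11.6 ± 0.674 CPM (0.62, SE 0.064, adjusted p = 0.00022), and missed the fold limit without stretched replicate 10 (0.57). At 3 h it was 0.58 (SE 0.065, adjusted p = 3.5e-05), just under the fold limit by edgeR and called by DESeq2. Fasn, the fatty acid synthase, rose in myoblasts at 6 h, at 682 ± 116 against 450 ± 21.9 CPM (0.60, SE 0.096, adjusted p = 0.0012), but not without stretched replicate 7 (0.49). Elovl6, a fatty acid elongase, rose in differentiated cells at 6 h, at 91.7 ± 3.28 against 60.7 ± 5.93 CPM (0.59, SE 0.063, adjusted p = 0.00038), but missed the fold limit without non-stretched replicate 7 (0.55), non-stretched replicate 8 (0.55) or stretched replicate 9 (0.57). Fasn and Elovl6 also belong to the genes controlled by sterol regulatory factors. The subunits of AMPK and its kinase Stk11 gave 1 call among 8 genes, with medians between -0.024 and 0.032. It was the muscle subunit Prkag3 in myoblasts at 6 h (0.619 ± 0.0950 against 0.953 ± 0.248 CPM, -0.62, SE 0.21, adjusted p = 0.047). With a library left out, that call held only without non-stretched replicate 8 (adjusted p = 0.018) or stretched replicate 9 (adjusted p = 0.0497). It was lost without any other library (adjusted p of 0.064 to 0.13) and with the experiment in the model (adjusted p = 0.052). It was kept with DESeq2 (adjusted p = 0.04985) and with the replicate block (adjusted p = 0.047).

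Genes induced by glucocorticoids, a group to which Txnip belongs by its known control, gave 6 calls from 4 of 13 genes tested of 14, with medians between -0.060 and 0.090. DESeq2 called 3 of these 4 genes and gave no adjusted p-value for Klf15. Sgk1, a kinase, rose at 1 h in myoblasts (348 ± 20.1 against 185 ± 14.1 CPM, 0.91, SE 0.057, adjusted p = 7.7e-06) and in differentiated cells (134 ± 48.6 against 47.9 ± 4.65 CPM, 1.48, SE 0.20, adjusted p = 0.016). Dusp1, a phosphatase of MAP kinases, rose at 1 h by 0.98 (SE 0.038, adjusted p = 1.4e-07) and 0.96 (SE 0.12, adjusted p = 0.013) in the 2 stages. The calls of Sgk1 and Dusp1 in differentiated cells were lost without any of the 4 non-stretched libraries (adjusted p of 0.052 to 0.087 and of 0.052 to 0.072). Without stretched replicate 4 they were kept, at 1.19 (adjusted p = 4.0e-05) for Sgk1 and 0.79 (adjusted p = 2.3e-05) for Dusp1. Errfi1, an inhibitor of the EGF receptor, rose in differentiated cells at 3 h by 0.74 (SE 0.095, adjusted p = 0.00064), whichever library was left out. At 1 h there, it was not called (adjusted p = 0.15). It was called with the replicate block (0.65, adjusted p = 0.0064) and with the experiment as covariate (0.63, adjusted p = 0.0011). In both of these, replicate 4 did not enter the estimate. Klf15 rose in differentiated cells at 6 h by 0.91 (SE 0.25, adjusted p = 0.027) on 8 to 24 counts per library. With a library left out, its call held only without non-stretched replicate 8 (adjusted p = 0.039) or stretched replicate 8 (adjusted p = 0.020). It was lost with the replicate block (adjusted p = 0.073) and kept with the experiment as covariate (adjusted p = 0.031). Sgk1, Dusp1 and Errfi1 are also immediate early genes of growth factor signalling. Tsc22d3, known as GILZ and a standard reporter of the glucocorticoid receptor, was higher at 6 h by 0.27 (SE 0.055, adjusted p = 0.0047) in myoblasts and 0.21 (SE 0.027, adjusted p = 0.00088) in differentiated cells, under the fold limit. In differentiated cells at 1 h it was 66.9 ± 6.86 against 85.1 ± 6.42 CPM (-0.35, SE 0.080, adjusted p = 0.10).

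Genes associated with FoxO factors gave 3 calls from 2 of 10 genes. Pik3ip1, an inhibitor of PI3 kinase, fell at 3 h in myoblasts (1.33 ± 0.385 against 2.06 ± 0.525 CPM, -0.61, SE 0.21, adjusted p = 0.038) and in differentiated cells (9.46 ± 0.847 against 14.7 ± 0.626 CPM, -0.63, SE 0.065, adjusted p = 0.00022). In myoblasts the groups overlapped. With a library left out, the call there held only without non-stretched replicate 7, non-stretched replicate 8 or stretched replicate 7 (adjusted p of 0.0086 to 0.033). It was kept with DESeq2 (adjusted p = 0.019), the replicate block (0.049) and the experiment as covariate (0.044). In differentiated cells, it missed the fold limit without stretched replicate 10 (-0.57). Cited2, a transcriptional coregulator, rose in differentiated cells at 1 h, at 378 ± 21.1 against 236 ± 25.4 CPM (0.68, SE 0.076, adjusted p = 0.0080), whichever library was left out. At 3 h, the limit on the p-value alone was met by 8 of the 10 genes in myoblasts and 6 in differentiated cells, where it was met by 31.9% and 22.2% of all genes, and the medians of the list were -0.17 and -0.14. As the list was chosen with earlier results of these data known, nothing can be read from these counts.

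**Figure D5:**
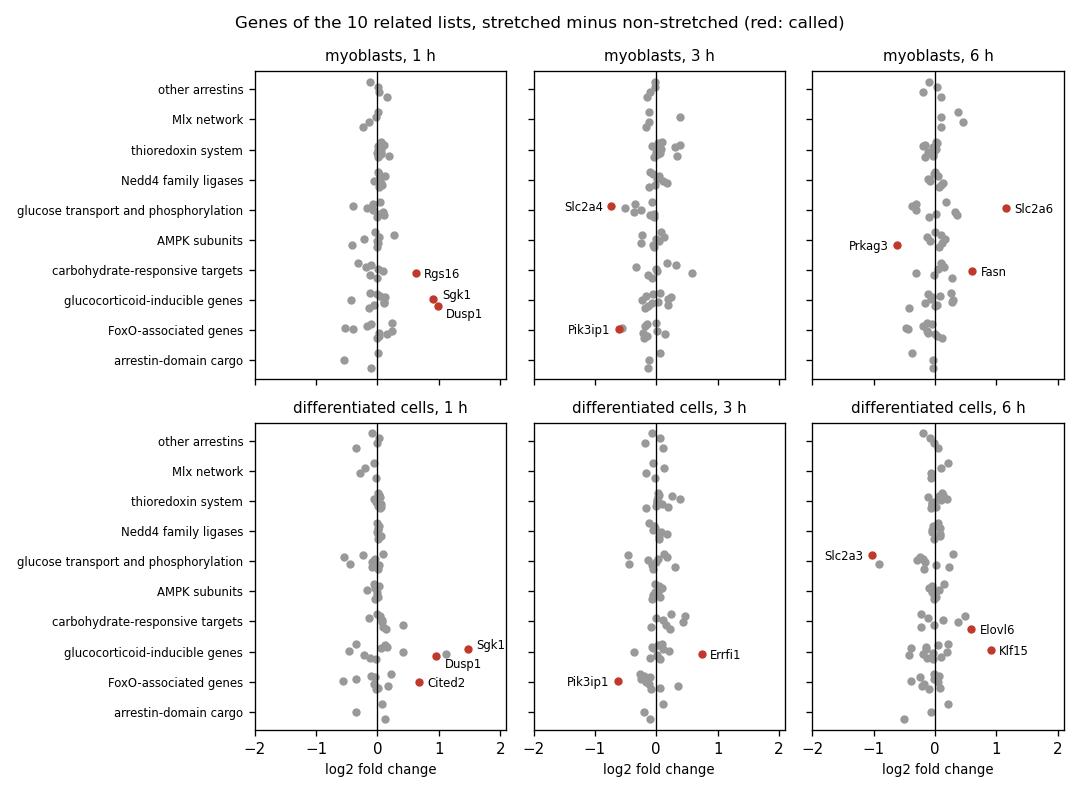
Log2 fold changes (stretched minus non-stretched) of the genes of the 10 lists, 1 panel for each stage and time, with called genes in red and named and the others in grey. The called genes lie between -1.03 (Slc2a3) and 1.48 (Sgk1), and in each panel all but 2 or 3 of the genes tested are not called.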

How the data were processed

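RNA of C2C12 cells was sequenced after cyclic equibiaxial stretch or without it. The authors deposited a table of read counts per gene for each stage, with the aligner STAR, the quantifier Salmon and the build mm10 named in the submitters' processing notes. All 48 columns were used and 0 were left out. The labels call the RNA nuclear, whereas the methods describe total RNA extraction and mRNA libraries. Strand-specific counting was not stated.

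The counts were tested in R 4.3.3 by quasi-likelihood in edgeR 4.0.16, after TMM normalization and filterByExpr, for the 8 libraries of a stretch comparison, the 12 non-stretched libraries of a stage over time or between experiments, or the 24 non-stretched libraries of both stages. P-values were adjusted by Benjamini-Hochberg over all genes tested, and a gene was called where its adjusted p-value was under 0.05 and its log2 fold change was 0.58 or more in size. Correlations used log2 CPM with a prior count of 1. The procedure was checked on simulated counts. Alternatives were DESeq2 1.42.0, RLE normalization, no filter, at least 10 counts in every library, the experiment as covariate, a replicate block, all 24 libraries of a stage, and leaving out each library.

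Same-numbered libraries of a stage share an experiment by their labels. Deviations from the group means over all genes correlated at -0.049 to 0.10 between stretched and non-stretched libraries of the same number (23 pairs, 1 over 0.1).

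Libraries held 48447318 to 77080730 counts, and the low counts of Arrdc4 and Arrdc2 limited their precision. Of the 47480 symbols, 45213 (95.2%) were matched to GENCODE vM21.

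The 5 genes and the 10 lists were chosen with earlier results of these data known. All 5 genes are named. From each list, genes called in any of the 6 stretch comparisons are named (at most 4), and Mlx, Mlxipl, Txn1, Txnrd1, Arrdc1, Slc2a1, Slc2a4, Hk2 and Tsc22d3 whatever their change. Genes like Txnip are the 5 with the highest smaller correlation in the 2 stages, and the 5 with the lowest larger one. Some genes that this rule names are not reported here.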

Additional observations from a re-analysis of the deposited data

Results flagged for a closer look

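In several pairs of groups, every stretched library lay on one side of the mean of the non-stretched libraries in one group and on the opposite side in the other, and none of these differences between groups was tested. For Txnip in myoblasts, the log2 fold change was 0.22 at 1 h and -0.16 at 3 h, and at 1 h it was 0.22 in myoblasts but -0.85 in differentiated cells. For Arrdc3 in myoblasts, it was 0.45 at 1 h against -0.43 at 3 h and -0.36 at 6 h. For Arrdc2 in myoblasts, it was -0.61 at 1 h and 0.34 at 6 h. For Mlxip in differentiated cells, it was -0.096 at 1 h and 0.086 at 6 h, with overlapping groups at both times. Of the 60 groups of 4 values checked for the 5 genes, 0 held a library past Dixon's limit of 0.829 in CPM. On log2 CPM, a scale added after seeing the data, 1 did, where chance flags about 1 in 20 groups. It was Txnip in stretched differentiated replicate 4 at 1 h, at 19.5 CPM against 41.4 to 46.1 CPM in the other 3 libraries, with a ratio of 0.876 (0.824 in CPM).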

How the results depend on the processing

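Over the alternatives, 990 of 990 log2 fold changes of the 5 genes that were given without a test moved by less than the spread between replicates. Of 300 tested values, 257 kept their direction and their side of the threshold, 17 were no longer past it, and 26 changed sign. Without the fold limit, the numbers of the 5 genes called were 2, 2 and 3 in myoblasts at 1 h, 3 h and 6 h, 2 in differentiated cells at 3 h, and 1 in non-stretched myoblasts from 3 h to 6 h. Those of list genes were 12, 34 and 28 of 77 tested in myoblasts, and 19 of 79 and 23 of 80 in differentiated cells at 3 h and 6 h. Of all genes, 5.92%, 31.9% and 27.2% met that limit in myoblasts and 22.2% and 22.3% in differentiated cells at these times. From 3 h to 6 h in non-stretched myoblasts, 2.02% did. In differentiated cells at 1 h, 1 of the 5 genes was called with DESeq2 (Arrdc2), 1 with the experiment as covariate (Txnip) and 2 with all 24 libraries (Txnip and Arrdc2). Leaving out 1 library gave 0 to 1 of the 5 genes in myoblasts at 1 h, in differentiated cells at 1 h and in non-stretched myoblasts from 3 h to 6 h. It gave 2 to 4, 0 to 3 and 1 to 3 list genes in myoblasts, and 1 to 5, 1 to 2 and 1 to 3 in differentiated cells. Of the 10 genes ranked most like or most opposite to Txnip, 1 remained after subtraction of group means and 4 without replicate 4. The sign changes were those of values near 0. For Mlxip between experiments in myoblasts (0.00051), the values were -0.0012 with DESeq2, -0.00043 with RLE, -0.0033 without a filter, -0.0036 with at least 10 counts, and -0.0092 to 0.0065 without 1 library. For Arrdc4 between stages (-0.0033), they were 0.015, 0.013, 0.0095 and 0.030 in the same order, and -0.038 to 0.055 without 1 library. The cause was not tested. Depth limits Arrdc4 most, at 30 to 65 counts per library.

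With a replicate block, 1 of the 5 genes (Txnip) was called in differentiated cells at 1 h, where replicate 4 did not enter the estimate. Among list genes, the block lost the call of Klf15 in differentiated cells at 6 h and gained that of Errfi1 in differentiated cells at 1 h, and it changed no other call of the stretch comparisons. The call of Errfi1 was gained with the experiment as covariate too, where replicate 4 likewise did not enter the estimate.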
